A study of Mus musculus with 4 samples.

Results

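The type I interferon-stimulated genes were followed in liver tumours of C57BL/6 mice fed the gut bacterium Akkermansia muciniphila (AKK) and of mice given PBS. The set was a list of 36 mouse symbols, matched through the Ensembl identifiers of the count tables. All 36 had reads in the tables, which hold 48526 genes, and all 36 were among the 17479 genes that passed the filter on low counts. The lowest count of a member in 1 library was 39 reads, for Cmpk2. There were 2 AKK libraries (AKK 1 and AKK 2) and 2 PBS libraries (PBS 1 and PBS 2), and pairs of values below stand in that order of replicate number within a group.

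Both groups shared the rest of the treatment. AKK mice received 5000000000 colony-forming units by mouth and PBS mice the vehicle, for 2 weeks ahead of the MCD diet and through its 2 weeks. The diet lacks methionine and choline and makes the liver fatty. Cells of RIL-175, 1 mouse hepatoma line carrying luciferase, were then placed in the liver, and dosing stopped for 6 days after the operation before it went on to the end. The tumour was taken whole, so its RNA holds implanted cells together with host cells. Age and sex of the mice were not given in the sources used here, and the labels call the replicates biological without naming the animals, so a p-value here reflects only how far these samples scatter. The names of the deposited tables follow a different pattern in each group, and should that mark different cohorts, their effect and that of feeding cannot be told apart.

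Type I interferons are secreted proteins that bind a receptor on most nucleated cells. The receptor's kinases activate a transcription factor complex that contains STAT2 and IRF9 and binds the interferon-stimulated response element in the promoters of many genes. Their products sense foreign nucleic acid, block viral replication and feed back on the pathway. Interferon gamma, which T cells and NK cells make, acts at a different element, the gamma-activated site, and induces many of the same genes. In tumours of the liver as elsewhere, expression of these genes is used as a readout of interferon exposure.

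The libraries held 48912489 to 59027227 reads on genes. Mitochondrial genes took 3.92 and 2.33% of reads in the AKK libraries, against 1.78 and 1.64% in the PBS libraries, and genes of cytosolic ribosomal proteins 6.33 and 3.98% against 3.29 and 3.77%. The keratins Krt8 and Krt18, abundant in hepatoma cells, read 2511 and 2610 CPM (read counts scaled to library size) and 1594 and 1677 CPM in AKK tumours, against 1443 and 2632 CPM and 807 and 1631 CPM in PBS tumours. They belong to a list of 9 hepatoma and fetal liver genes, of which 4 were lowest in PBS 1. Others differed, as H19 read 1.54 and 1.59 CPM in AKK tumours against 58.1 and 9.27 CPM in PBS tumours. Epcam read 2.25 and 3.37 CPM in AKK tumours against 0.131 and 0.0210 CPM in PBS tumours. PBS 1 also stood apart in 5 skeletal muscle genes, whose summed level was 2.14 and 2.43 CPM in AKK tumours, against 199.6 and 5.70 CPM in PBS tumours. AKK 1 stood apart in 7 hepatocyte genes, which summed to 312 and 49.1 CPM in AKK tumours, against 0.975 and 2.61 CPM in PBS tumours.

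No interferon-stimulated gene of the set passed the adjusted threshold between AKK and PBS tumours. The quasi-likelihood test of edgeR called 0 of the 36 higher and 0 lower at an adjusted p of 0.05, where it called 0.00572% of all genes tested. DESeq2 called 0 members (2.04% of all genes higher, 2.98% lower) and limma-voom 0 members (0% of all genes). At an unadjusted p under 0.05 in edgeR, Oas2 was higher and Eif2ak2 lower, 1 gene each, beside 6.7% of all genes higher and 8.62% lower. The fitted log2 fold change (AKK over PBS) had a median of -0.16 over the members and 0.02 over all genes, with 14 of the 36 above 0 (51.8% of all genes) and a range of -1.03 to 1.95. When libraries rather than reads were averaged, by taking means of log2 CPM, 18 of 36 members lay higher in AKK (51.8% of all genes) and the median difference was -0.0054.

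The spread within groups was the main feature of the set. PBS 2 exceeded PBS 1 in 33 of 36 members, against 49.9% of all genes, by a median of 1.18 on the log2 scale, which is 2.27-fold. It did so by at least 2-fold in 22 members, where 7.22% of all genes did, while 0 members and 7.55% of all genes showed a 2-fold difference the other way. AKK 1 exceeded AKK 2 in 31 members (51.6% of all genes) by a median of 0.58, which is 1.50-fold, and by at least 2-fold in 9 members (10.5% of all genes), with 0 members the other way (5.32% of all genes). Over all genes the medians of the same differences were 0.00 and 0.03.

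Set against the difference of the group means on the log2 CPM scale, the difference between the PBS libraries was larger in 28 of 36 members (41.4% of all genes) and the difference between the AKK libraries in 23 (51.3% of all genes). In 20 members both exceeded it (28.5% of all genes), and in 31 at least 1 did (64.2% of all genes). The other 5, Eif2ak2, Ifit2, Oas1g, Oas2 and Rsad2, had a group difference larger than the gap within either group. The groups overlapped in 29 members (48.6% of all genes). Both AKK libraries lay above both PBS libraries in Oas1a, Oas1g and Oas2, which is 3 members where 26.7% of all genes did so. They lay below both in Eif2ak2, Ifit2, Mx1 and Rsad2, which is 4 members beside 24.7% of all genes. In 14 members both AKK libraries lay between the PBS libraries (9.39% of all genes), and in each of these PBS 1 was lowest and PBS 2 highest (4.82% of all genes). These descriptions carry no test, since the libraries of a group are only 2.

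**Figure D1:**
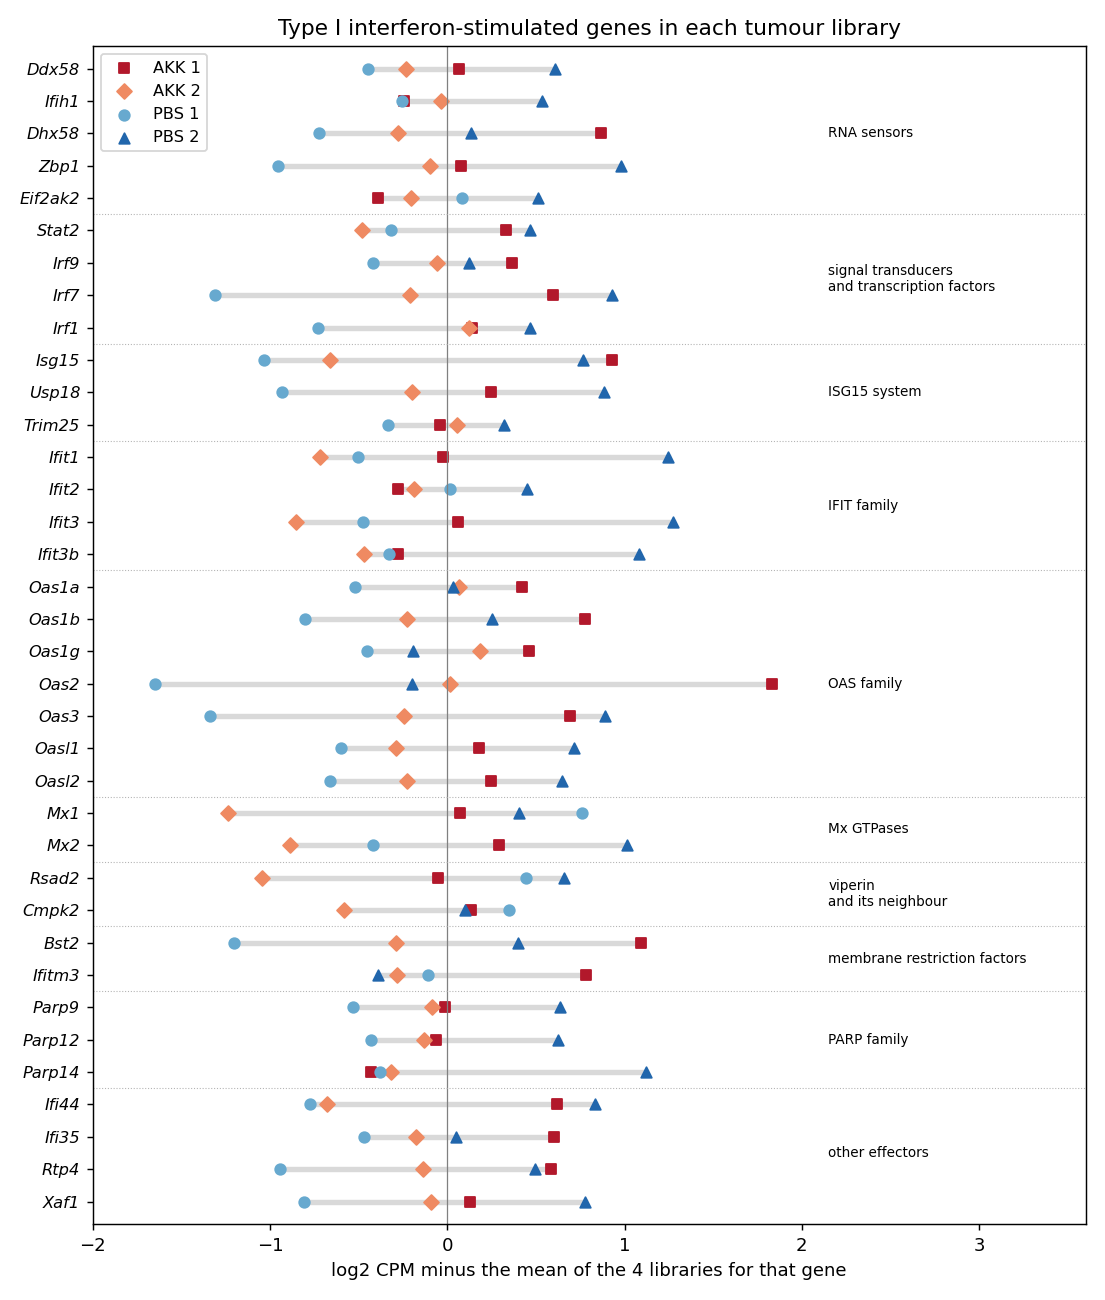
Level of each of the 36 genes in each library, as log2 CPM minus that gene's mean over the 4 libraries (x axis), with genes grouped by role down the page and grey bars spanning lowest to highest. PBS 1 is the lowest library in 24 genes and PBS 2 the highest in 23, while AKK 1 is the highest in 11 and AKK 2 in 0.

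PBS 1 was the lowest of the 4 libraries in 24 members, against 26.8% of all genes. PBS 2 was the highest in 23 members (22% of all genes) and AKK 1 in 11 (35.3% of all genes). Mx1 and Cmpk2, 2 members, were highest in PBS 1 (24.5% of all genes), and 0 members in AKK 2 (18.2% of all genes). Ifitm3 was the 1 member lowest in PBS 2 (23.6% of all genes). The IFIT and PARP genes were among those highest in PBS 2, and Isg15, Bst2 and the Oas1 genes among those highest in AKK 1, a share of members near that of all genes. In bulk tumour RNA, fewer responding cells and less RNA per cell cannot be told apart.

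**Figure D2:**
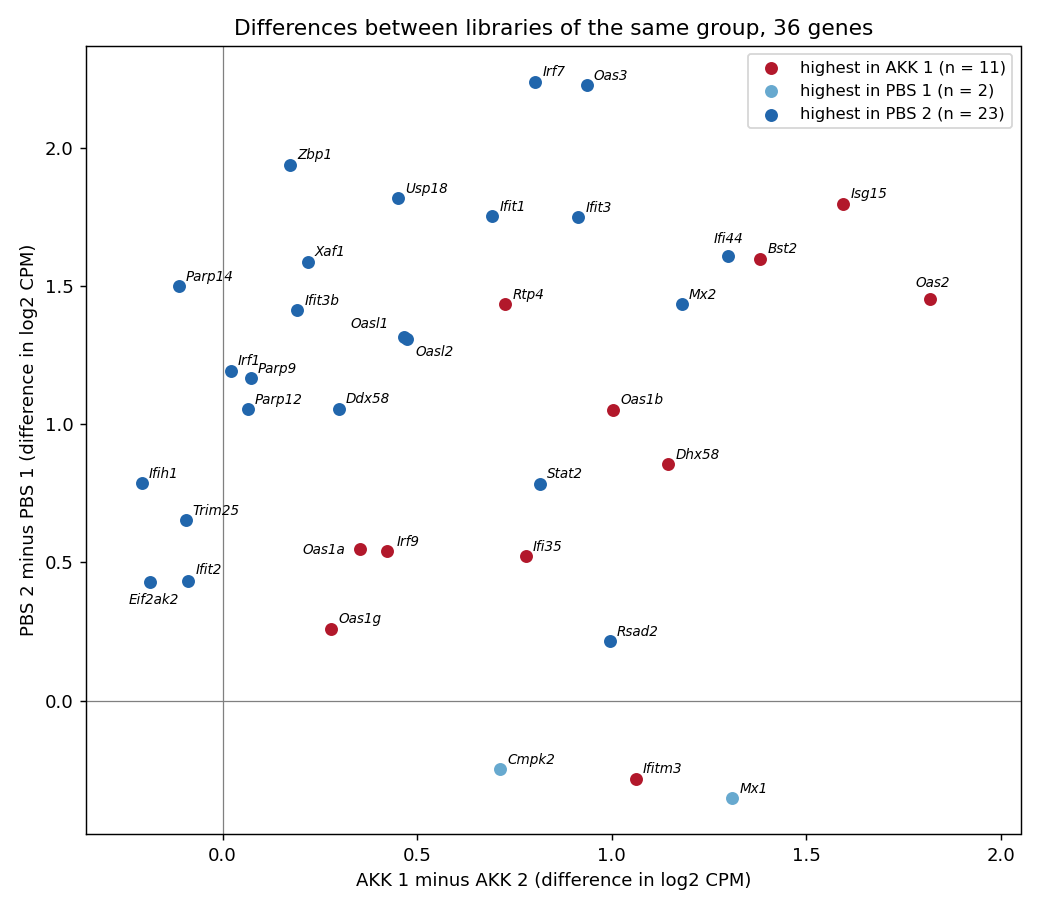
Difference in log2 CPM between the AKK libraries (AKK 1 minus AKK 2, x axis) and between the PBS libraries (PBS 2 minus PBS 1, y axis) for each gene, coloured by the library in which it was highest. Of 36 genes, 33 lie above 0 on the PBS axis and 31 above 0 on the AKK axis, while Mx1, Cmpk2 and Ifitm3 lie below 0 on the PBS axis.

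Promoter sequences were set beside the levels because the response element is the shared control sequence of these genes. RefSeq promoter sequences on GRCm38.p6, from 250 bases before to 50 bases after the start site, were found for 26 members by symbol. The core of the interferon-stimulated response element was searched as TTTCNNTTTC on either strand (GAAANNGAAA on the other), and the gamma-activated site as TTCNNNGAA, which reads the same on both strands. The core was in 14 of the 26 members, beside 3.99% of the 27025 genes in the table and 3.44% of its 32851 promoters of the same length. The gamma-activated site was in 7 of the 26, beside 9.55% of genes and 8.30% of promoters. A match is a description of these letters and not a measured binding site.

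The following 8 stretches, picked by hand from the 17 members with a match after their values were seen, show single, repeated and overlapping motifs and the shared promoter sequence of Ifit3 and Ifit3b. Capitals mark the response element core, except in Irf1, where they mark the gamma-activated site, and in Bst2, where both motifs overlap in 1 run. Sequences run 5′ to 3′ on the strand of the gene.
Ifit1, chr19:34640760-34640838, plus strand: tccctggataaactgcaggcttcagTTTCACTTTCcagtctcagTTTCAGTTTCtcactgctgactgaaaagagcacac
Ifit3, chr19:34583348-34583441, plus strand: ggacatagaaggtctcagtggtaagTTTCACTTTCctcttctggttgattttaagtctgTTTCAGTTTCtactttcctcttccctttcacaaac
Ifit3b, chr19:34607744-34607837, plus strand: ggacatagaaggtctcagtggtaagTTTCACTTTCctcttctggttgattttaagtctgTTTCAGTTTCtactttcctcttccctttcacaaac
Isg15, chr4:156200850-156200921, minus strand: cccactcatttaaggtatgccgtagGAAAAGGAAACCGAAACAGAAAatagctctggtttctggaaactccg
Oas3, chr5:120777700-120777759, minus strand: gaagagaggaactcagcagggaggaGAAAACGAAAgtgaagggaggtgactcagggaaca
Rsad2, chr12:26456538-26456597, minus strand: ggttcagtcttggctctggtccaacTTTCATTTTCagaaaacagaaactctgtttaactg
Bst2, chr8:71537562-71537633, minus strand: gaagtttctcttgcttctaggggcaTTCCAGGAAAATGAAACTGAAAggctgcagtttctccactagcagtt
Irf1, chr11:53769899-53769957, plus strand: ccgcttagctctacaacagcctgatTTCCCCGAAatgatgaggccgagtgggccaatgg

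The stretches of Ifit3 and Ifit3b were identical in 94 of 94 bases. Isg15 held 3 overlapping copies of the core and Ifit1 held 2 separate ones. PBS 2 exceeded PBS 1 by at least 2-fold in 7 of the 14 members with the core and in 7 of the 12 whose promoters lacked it. AKK 1 was highest in 5 of the 14 and 2 of the 12. The median log2 fold change was -0.20 in the 14 and -0.12 in the 12.

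**Figure D3:**
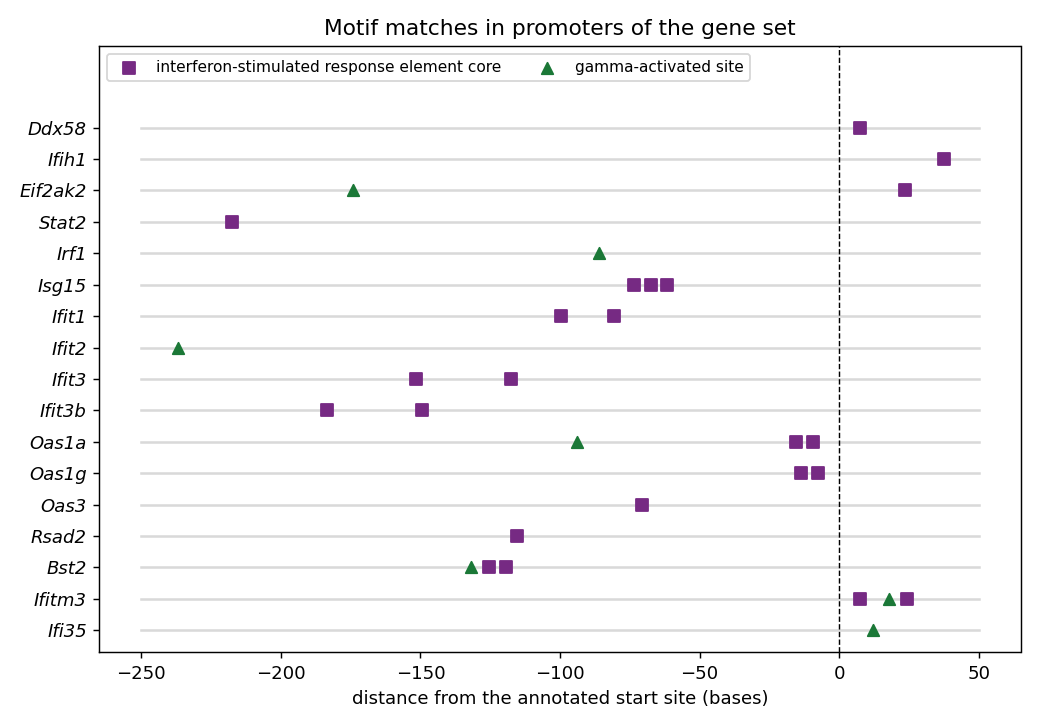
Position of motif matches (x axis, bases from the annotated start site, dashed line) in the 17 members that held either motif. Squares mark the response element core and triangles the gamma-activated site. Matches of Ddx58, Ifih1, Ifitm3 and Ifi35 lie after the start site only.

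Of the RNA sensors, 0 passed the adjusted threshold. Ddx58 encodes RIG-I and Ifih1 encodes MDA5, helicases that detect viral RNA in the cytosol. Ddx58 read 26.3 and 21.4 CPM in AKK tumours, against 18.4 and 38.2 CPM in PBS tumours, and Ifih1 read 25.4 and 29.3 CPM against 25.2 and 43.5 CPM. For Dhx58, the gene of their regulator LGP2, values were 10.8 and 4.88 CPM in AKK against 3.58 and 6.48 CPM in PBS. In the first pair PBS 2 was the high library, while Dhx58 was highest in AKK 1, and the groups overlapped in all 3.

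Zbp1, a sensor of Z-form nucleic acid that can start necroptosis, read 37.2 and 33.0 CPM in AKK tumours, against 18.2 and 69.8 CPM in PBS tumours. The AKK values were close together and fell inside the 3.84-fold gap between the PBS libraries. Eif2ak2 (ENSMUSG00000024079.4), the kinase PKR that halts translation on double-stranded RNA, was the member with the smallest p. It read 43.1 and 49.1 CPM in AKK tumours, against 59.8 and 80.4 CPM in PBS tumours. Both AKK libraries were below both PBS libraries, with a log2 fold change of -0.60 (SE 0.22, edgeR adjusted p = 0.294, n = 2 per group).

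Of the signal transducers and transcription factors, 0 passed the adjusted threshold. Irf7, the factor that amplifies interferon alpha production, had the widest gap between PBS libraries of any member, with 41.7 and 23.9 CPM in AKK tumours, against 11.1 and 52.6 CPM in PBS tumours. That gap was 4.72-fold, and the fitted log2 fold change was 0.04. Irf1, which interferon gamma induces and whose promoter holds the match to the gamma-activated site printed above, read 102 and 101 CPM in AKK against 56.1 and 128 CPM in PBS. Its AKK libraries were 1.01-fold apart and its PBS libraries 2.29-fold apart.

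The products of Stat2 and Irf9 belong to the complex that binds the response element. Stat2 read 57.5 and 32.7 CPM in AKK tumours and 36.7 and 63.2 CPM in PBS tumours. Irf9 read 45.7 and 34.1 CPM in AKK tumours and 26.5 and 38.6 CPM in PBS tumours. Neither separated the groups, and the high library was PBS 2 for Stat2 and AKK 1 for Irf9.

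In the ISG15 system, Isg15 had 1 high and 1 low library in both groups. It encodes a ubiquitin-like protein that is attached to newly made proteins, and read 21.4 and 7.09 CPM in AKK tumours, against 5.49 and 19.1 CPM in PBS tumours. Its libraries differed 3.02-fold within AKK and 3.48-fold within PBS, while the log2 fold change between groups was 0.21. Usp18, the protease that removes ISG15 and dampens the receptor, read 11.1 and 8.12 CPM against 4.89 and 17.2 CPM. Trim25, a ubiquitin ligase that acts on RIG-I, varied less, at 137 and 146 CPM against 112 and 176 CPM.

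All 4 IFIT genes, whose products bind viral RNA and block its translation, were highest in PBS 2. Ifit1 read 21.8 and 13.5 CPM in AKK tumours, against 15.6 and 52.6 CPM in PBS tumours, and Ifit3 43.3 and 23.0 CPM against 30.0 and 101 CPM. Ifit3b, the close copy of Ifit3, read 8.90 and 7.79 CPM against 8.60 and 22.9 CPM. In these 3 genes the AKK values overlapped PBS 1 and lay below PBS 2.

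Ifit3 and Ifit3b may not be fully separated by such counts. In the longest transcripts of a GENCODE mouse release, 18.4% of the 151-base windows of Ifit3 also occur in Ifit3b. A single read from them cannot be placed in 1 copy, and how often its mate places the pair was not examined. Shared windows made up 32.3% of those of Oas1a and 29.9% of those of Oas1g, which share sequence with each other. They made up 8.54% in Rtp4 and 1.2% in Ifit1. Ifit2 (ENSMUSG00000045932.12) had 27.2 and 29.0 CPM in AKK tumours, against 33.4 and 45.1 CPM in PBS tumours. Both AKK libraries were lower, with a log2 fold change of -0.48 (SE 0.22, edgeR adjusted p = 0.362, n = 2 per group), and -0.28 without PBS 2.

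Active enzymes of the OAS family make oligoadenylates that activate RNase L, an enzyme that degrades RNA. The 7 genes of this family in the set had a median log2 fold change of 0.48, with 5 above 0 and 0 past the threshold. Oas2 (ENSMUSG00000032690.16) had the largest fold change of the set, with 26.3 and 7.45 CPM in AKK tumours, against 2.34 and 6.41 CPM in PBS tumours. AKK 1 stood far above the rest, and AKK 2 was close to PBS 2. The log2 fold change was 1.95 (SE 0.73, edgeR adjusted p = 0.306, n = 2 per group), and DESeq2 gave an adjusted p of 0.0633. Without AKK 1 the log2 fold change of Oas2 was 0.78.

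Oas1a, Oas1b and Oas1g are neighbouring copies within the family, and C57BL/6 mice are among the strains with a truncated Oas1b protein. Oas1g (ENSMUSG00000066861.14) read 2.62 and 2.16 CPM in AKK tumours, against 1.39 and 1.66 CPM in PBS tumours, with a log2 fold change of 0.65 (SE 0.43, edgeR adjusted p = 0.492, n = 2 per group). Oas1a read 5.08 and 3.97 CPM in AKK against 2.64 and 3.87 CPM in PBS, and Oas1b 8.17 and 4.08 CPM against 2.74 and 5.68 CPM. The groups separated narrowly in Oas1a and Oas1g and overlapped in Oas1b, and all 3 were lowest in PBS 1 and highest in AKK 1.

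Oas3, which makes longer oligoadenylates, was close to Irf7 in its spread. It read 25.5 and 13.3 CPM in AKK tumours, against 6.24 and 29.2 CPM in PBS tumours, a 4.68-fold gap within PBS. The OAS-like genes Oasl1, which in mice restrains translation of Irf7, and Oasl2 read 63.1 and 45.6 CPM and 78.2 and 56.4 CPM in AKK, against 36.7 and 91.4 CPM and 41.7 and 103 CPM in PBS. In each of these 3 genes both AKK libraries lay between the PBS libraries.

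Mx1, Cmpk2 and Ifitm3 did not follow the pattern of PBS 2 over PBS 1. Mx1 (ENSMUSG00000000386.14), a dynamin-like GTPase that blocks influenza virus and is defective in C57BL/6 mice, read 11.5 and 4.62 CPM in AKK tumours, against 18.5 and 14.4 CPM in PBS tumours. PBS 1 was the highest library and both AKK libraries were below both PBS libraries, with a log2 fold change of -1.03 (SE 0.46, edgeR adjusted p = 0.355, n = 2 per group). Its relative Mx2 overlapped, at 3.80 and 1.68 CPM in AKK against 2.32 and 6.29 CPM in PBS.

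Rsad2 (ENSMUSG00000020641.15) encodes viperin, which makes a nucleotide that stops viral polymerases, and lies beside Cmpk2, a nucleotide kinase gene. Rsad2 read 3.89 and 1.95 CPM in AKK tumours, against 5.49 and 6.37 CPM in PBS tumours, again with both AKK libraries lower. The log2 fold change was -1.02 (SE 0.46, edgeR adjusted p = 0.355, n = 2 per group). Cmpk2 read 1.10 and 0.668 CPM against 1.27 and 1.07 CPM, and its groups overlapped. The fold changes of Mx1 and Rsad2 kept their sign whichever library was left out, between -1.83 and -0.53 for Mx1 and between -1.60 and -0.61 for Rsad2.

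The membrane proteins were highest in AKK 1. Bst2 encodes tetherin, which holds budding virions at the cell surface, and read 86.0 and 33.0 CPM in AKK tumours, against 17.5 and 53.1 CPM in PBS tumours. Ifitm3 (ENSMUSG00000025492.6), which blocks fusion of virus with endosomes, read 129 and 61.7 CPM in AKK tumours, against 69.6 and 57.2 CPM in PBS tumours. PBS 2 was its lowest library, unlike any other member, and AKK 2 lay between the PBS libraries. The log2 fold change of Ifitm3 was 0.59 (SE 0.36, edgeR adjusted p = 0.463, n = 2 per group), and -0.037 without AKK 1.

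The PARP genes encode enzymes and partners of ADP-ribosylation. Parp14 read 30.5 and 32.9 CPM in AKK tumours, against 31.6 and 89.3 CPM in PBS tumours, so that 3 libraries were within a narrow band and PBS 2 stood alone above it. Parp9 read 42.4 and 40.3 CPM against 29.6 and 66.5 CPM. Parp12 read 36.2 and 34.6 CPM against 28.1 and 58.4 CPM. The AKK libraries agreed closely in all 3 genes, differing by at most 0.11 on the log2 scale, while the PBS libraries differed by 1.05 to 1.50.

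Of the remaining effectors, Ifi35 (ENSMUSG00000010358.13), a leucine zipper protein that binds Nmi, read 34.8 and 20.3 CPM in AKK tumours, against 16.5 and 23.7 CPM in PBS tumours, with a log2 fold change of 0.45 (SE 0.33, edgeR adjusted p = 0.533, n = 2 per group). That of Ifi35 was 0.015 without AKK 1, 0.78 without AKK 2, 0.21 without PBS 1 and 0.70 without PBS 2. Xaf1, a partner of the apoptosis inhibitor XIAP, read 45.6 and 39.1 CPM against 23.8 and 71.6 CPM. Rtp4, a receptor chaperone, read 22.6 and 13.6 CPM against 7.82 and 21.1 CPM. Ifi44 read 10.2 and 4.16 CPM against 3.90 and 11.9 CPM. In all 4 the groups overlapped and PBS 1 was the lowest library.

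The sign of many fold changes turned on which PBS tumour was the comparator. Against PBS 2 alone, 9 of 36 members lay higher in AKK (53.4% of all genes) and the median log2 fold change was -0.68. Against PBS 1 alone, 29 of 36 lay higher (51.8% of all genes) and the median was 0.54. edgeR then called 3 members lower against PBS 2 alone, namely Parp14 (-1.50, adjusted p = 0.0346), Ifit1 (-1.58, 0.0422) and Ifit3 (-1.61, 0.0475), where 0.698% of all genes were called lower and 0.8% higher. It called 0 members higher or lower against PBS 1 alone (0.527% and 1.2% of all genes), with 8 higher and 1 lower at an unadjusted p under 0.05 (4.71% and 6.76% of all genes). In these fits the lone PBS library is assumed to vary like the AKK pair, and each call rests on 1 PBS tumour.

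**Figure D4:**
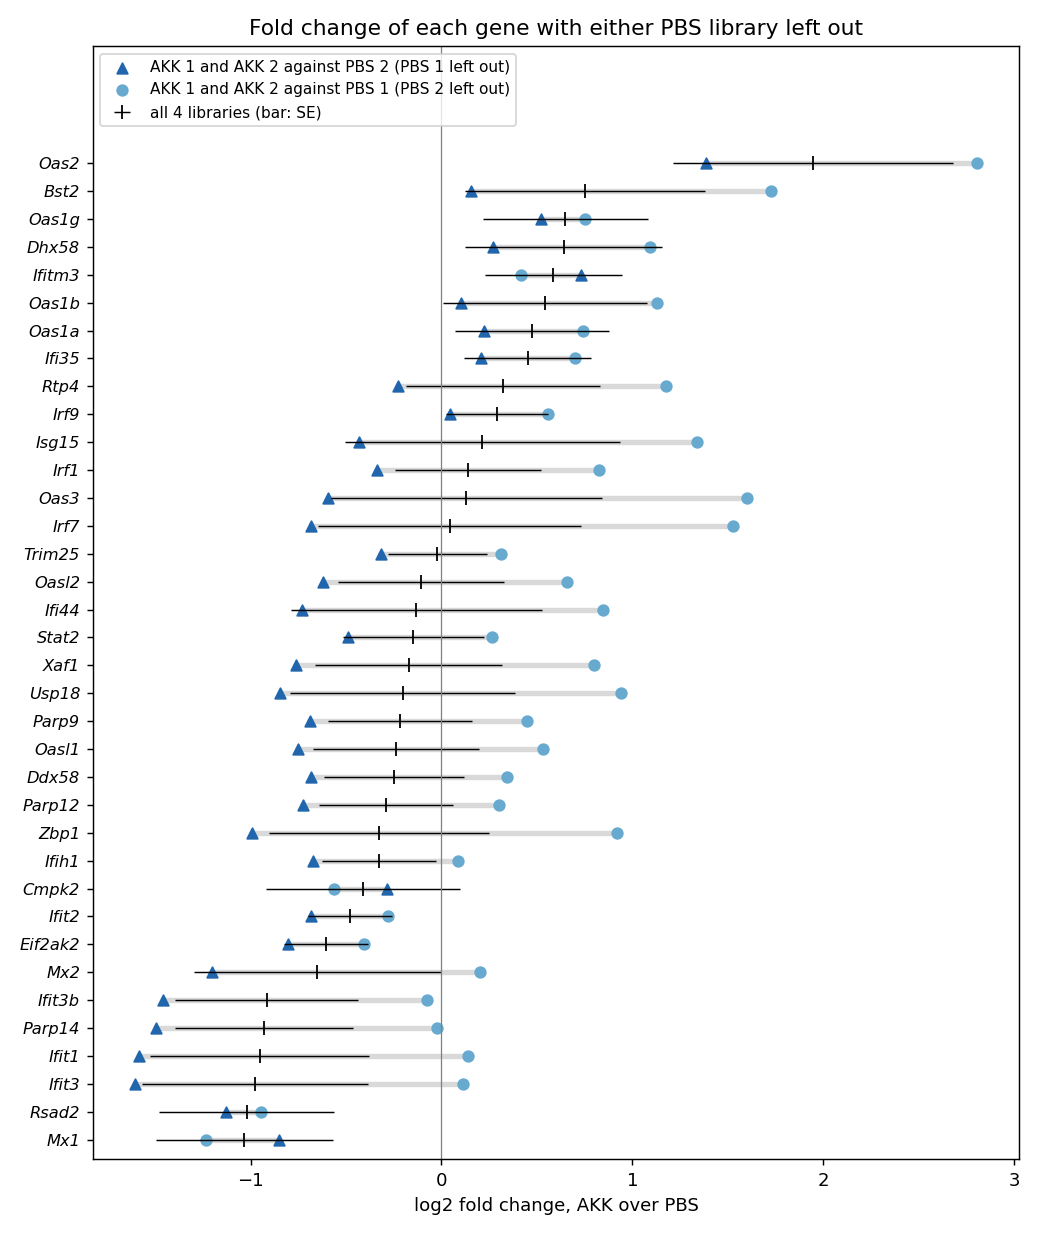
Log2 fold change (AKK over PBS, x axis) of each gene with all 4 libraries (bar, SE), against PBS 2 only (triangles) and against PBS 1 only (circles). Circles lie right of 0 in 29 of 36 genes and triangles in 9, and both lie left of 0 for Eif2ak2, Ifit2, Ifit3b, Mx1, Rsad2, Cmpk2 and Parp14.

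Ligands of the pathway were nearly absent from the counts. Of 20 genes of type I and type III interferons, 12 had 0 reads in all 4 libraries. For counting error only, that allows up to 0.0531 and 0.0514 CPM in AKK and up to 0.0562 and 0.0631 CPM in PBS. Reads that map more than once are not counted, so reads from any sequence that these genes share would be missed. How much they share was not examined. Another 7, Ifnb1, Ifna2, Ifna7, Ifna11, Ifnab, Ifnk and Ifnz, had at most 4 reads in 1 library and summed to 4 and 3 reads in AKK tumours and 5 and 4 reads in PBS tumours. Ifnb1, the gene of interferon beta, had 0 and 1 reads in AKK and 1 and 0 in PBS. Ifne, an interferon of epithelia, was the exception, with 122 and 88 reads in AKK against 68 and 58 reads in PBS (2.16 and 1.51 against 1.27 and 1.22 CPM, edgeR adjusted p = 0.577).

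Ifng, the gene of interferon gamma, had 23 and 16 reads in AKK tumours against 3 and 20 reads in PBS tumours. PBS 1 was thus the low library for Ifng as for 24 members of the set, and the same held for Cd8a, a marker of cytotoxic T cells, with 222 and 153 reads against 51 and 155 reads. Of the receptor genes, Ifnar1 read 51.7 and 70.6 CPM in AKK against 76.7 and 63.3 CPM in PBS, and Ifnar2 20.0 and 17.9 CPM against 14.2 and 10.8 CPM. Among 6 receptor genes 0 passed the test, the smallest p belonging to Il10rb (30.7 and 22.1 against 15.7 and 13.8 CPM, edgeR adjusted p = 0.248) and Ifnar2 (0.336).

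Of 11 kinases and transcription factors outside the set 0 passed. Jak1, a kinase of the receptor, read 112 and 156 CPM in AKK tumours against 184 and 206 CPM in PBS tumours (edgeR adjusted p = 0.341), and Irf3, which switches on Ifnb1, read 57.8 and 51.9 CPM against 42.8 and 43.9 CPM (0.409). Tyk2, the partner kinase of Jak1, lay at 67.9 and 60.6 CPM against 60.9 and 62.1 CPM.

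Sensors and adaptors outside the set (10 genes) and negative regulators (10 genes kept) had 0 calls each. Tlr9 and Tlr7, endosomal receptors for nucleic acid, had the smallest p of the sensors, with 0.248 and 0.668 CPM in AKK against 1.46 and 1.39 CPM in PBS for Tlr9 and 0.814 and 1.23 against 2.72 and 1.30 CPM for Tlr7 (edgeR adjusted p = 0.309 and 0.442). Rnaseh2c and Adar, which keep self nucleic acid from triggering the sensors, led the regulators. Rnaseh2c read 44.3 and 28.8 CPM in AKK against 21.0 and 25.7 CPM in PBS, and Adar 99.9 and 102 CPM against 108 and 164 CPM (edgeR adjusted p = 0.336 and 0.436).

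A further list of 45 interferon-stimulated genes outside the set had 0 called, a median log2 fold change of 0.14 and 28 above 0 (51.8% of all genes). PBS 2 exceeded PBS 1 in 39 of the 45 (49.9% of all genes), by at least 2-fold in 16 (7.22% of all genes), and PBS 1 was the lowest library in 28 (26.8% of all genes). The smallest p belonged to Ly6e, at 271 and 251 CPM in AKK tumours against 136 and 156 CPM in PBS tumours (log2 fold change 0.84, edgeR adjusted p = 0.199), and to Ifi207, at 12.5 and 9.86 CPM against 20.5 and 29.2 CPM (-1.15, 0.207). The groups did not overlap in either gene. Of the 45, 5 lay above both PBS libraries (26.7% of all genes) and 4 below (24.7% of all genes).

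Genes of the interferon gamma response and antigen presentation also showed the PBS gap. PBS 2 exceeded PBS 1 in 26 of 26 (49.9% of all genes), by at least 2-fold in 18 (7.22% of all genes) and by a median of 1.61 on the log2 scale. Gbp2, a GTPase induced by interferon gamma, read 73.3 and 109 CPM in AKK tumours against 73.5 and 574 CPM in PBS tumours, and Nlrc5, which switches on MHC class I genes, 29.9 and 21.6 CPM against 34.3 and 72.4 CPM (edgeR adjusted p = 0.375 and 0.298). For these 26 genes, the difference between the PBS libraries exceeded the group difference in 26, and 0 were called. Whether interferon gamma, type I interferon or neither drove the shared gap was not tested.

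**Figure D5:**
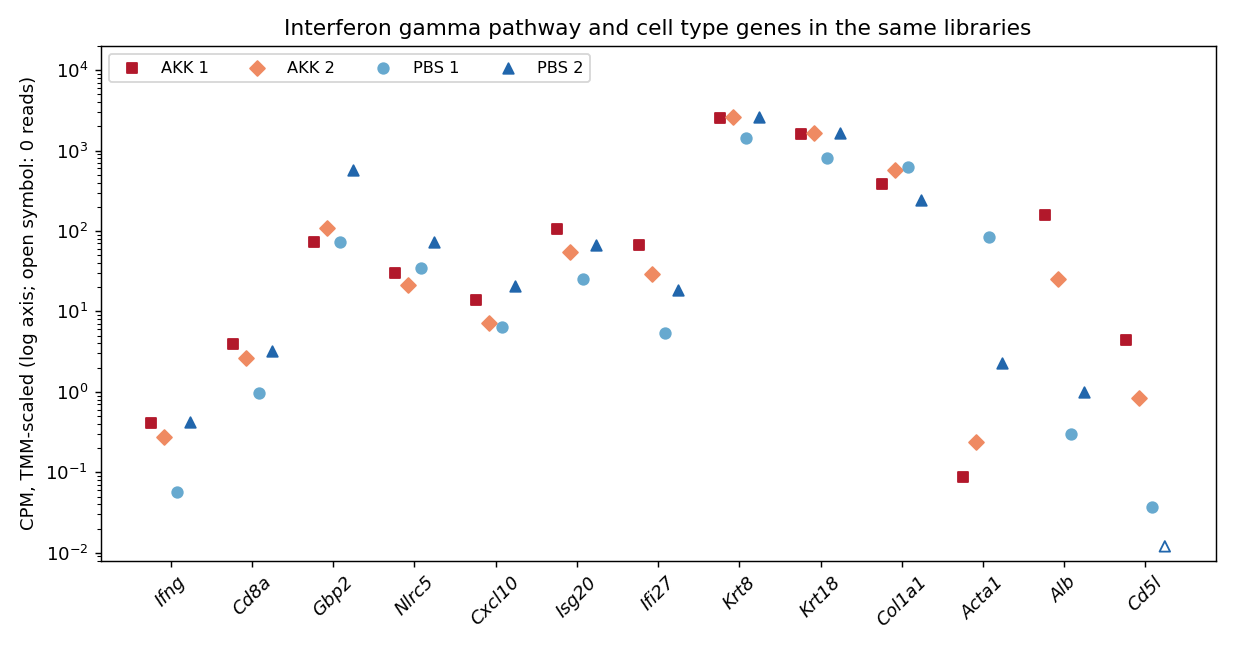
Levels (CPM, log axis) in each library of genes of the interferon gamma pathway, of interferon-stimulated genes outside the set and of cell type markers, picked after their values were seen. PBS 1 is the lowest library for Ifng, Cd8a, Cxcl10, Isg20, Ifi27, Krt8 and Krt18 and the highest for Col1a1 and Acta1, while Alb and Cd5l are highest in AKK 1.

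Cell type markers moved with these libraries, and their part in the gene levels was not tested. Krt8 and Krt18 were 1.82-fold and 2.02-fold higher in PBS 2 than in PBS 1, and 22 of the 36 members had a larger PBS gap than either keratin. The list of hepatoma and fetal liver genes that holds these keratins did not share that direction. Of its 9 genes, 4 were higher in PBS 2 than in PBS 1, and the median difference was -0.011 on the log2 scale. Of 8 T cell genes 6 were lowest in PBS 1, and the list summed to 12.1 and 6.59 CPM in AKK tumours against 3.45 and 6.58 CPM in PBS tumours. Macrophage genes (8) ran the other way, with 578 and 582 CPM in AKK against 853 and 675 CPM in PBS. Fibroblast genes (7) summed to 915 and 1420 CPM in AKK against 2075 and 742 CPM in PBS.

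Among further marker lists, those of Kupffer cells, of B and plasma cells and of monocytes and neutrophils had their highest sum in AKK 1. Those of dendritic cells did not. Monocyte and neutrophil genes (7) summed to 17.2 and 9.83 CPM in AKK tumours against 8.75 and 5.55 CPM in PBS tumours. Kupffer cell genes (5) summed to 18.2 and 2.38 CPM in AKK tumours against 0.337 and 0.0210 CPM in PBS tumours, with Clec4f, Timd4, Cd5l and Marco at 0 reads in PBS 2. B and plasma cell genes (6) summed to 55.3 and 24.0 CPM in AKK against 4.91 and 4.79 CPM in PBS, and Ms4a1 had reads in AKK 1 only. Genes of plasmacytoid dendritic cells (7), a main source of interferon alpha, summed to 169 and 134 CPM in AKK against 204 and 166 CPM in PBS. Tcf4, which other cells also express, made up 168 and 133 CPM of that sum in AKK and 203 and 166 CPM in PBS, while Siglech had 5 and 2 reads in AKK and 0 and 2 reads in PBS. Conventional dendritic cell genes (6) summed to 6.90 and 7.76 CPM in AKK against 4.63 and 6.08 CPM in PBS.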

How the data were processed

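Total RNA of 4 liver tumours was sequenced as read pairs, per the labels' protocols. The deposited files hold unnormalized counts of reads for each gene, laid out as STAR's gene quantification writes them. STAR 2.5.2 and RSEM 1.2.31 are listed in the submitters' processing notes. The genome build is not given in the sources used here, nor is the annotation. Such counts take reads that map once and overlap 1 gene. The own-strand column, with 95.4 to 96.2% of reads assigned by strand, was used. Summary rows that name no gene (8.97 to 12.3% unmapped, 4.20 to 6.66% multimapping, 11.4 to 13.5% outside genes, 1.18 to 1.37% ambiguous) were left out.

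Of 48526 identifiers, 48058 matched a symbol without version. Genes were tested with edgeR 4.0.16 in R 4.3.3 (filterByExpr, TMM, glmQLFit in legacy form, glmQLFTest, two-sided, group as the only term, Benjamini-Hochberg over 17479 genes). CPM values are TMM-scaled, log2 CPM used a prior count of 0.125, and SEs come from the F statistic. Of simulated counts for this comparison, changes of 4-fold were called in 73.6% and of 32-fold in 100% of genes, with 15.4 false calls per simulation. The measured counts behaved otherwise. Alb, with a fitted log2 fold change of 7.15, was not called (edgeR adjusted p = 0.182). The simulated rates therefore do not tell which changes the test could find in these tumours. Members and lists were chosen with earlier results of these data known. Statistics are printed for the 4 members with the smallest p per direction, library values for all others; of each pathway or comparison list the 2 genes with the smallest p are named, together with Ifnb1, Ifng, Ifnar1, Ifnar2, Jak1, Tyk2, Irf3, Gbp2 and every ligand with reads; 1 further gene of that rule is not reported here. Marker lists are given by their summed level, but the sums of the lists for hepatoma and fetal liver, endothelium, NK cells and cell cycle are not printed. Other genes named were chosen after their values were seen. Alternatives were other scalings and filters, unstranded counts, the edgeR 4 form, DESeq2 1.42.0 on the same genes, limma-voom (limma 3.58.1), the replicate number as a block, a threshold of 0.1, and each library left out.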

Additional observations from a re-analysis of the deposited data

How the results depend on the processing

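With 2 libraries per group, single genes rest on few tumours. The count of genes called over the whole table was 1 and depended on the test: 3 with upper-quartile scaling, 631 without a filter on low counts, 4 in the edgeR 4 form, 878 in DESeq2, 0 in limma-voom, 3 at an adjusted p of 0.1, and 0 to 324 with a library left out. Members called stayed at 0 except with a library left out (0 to 3, the 3 without PBS 1). The members' median log2 fold change of -0.16 was 0.0004 in limma-voom and ran from -0.68 (without PBS 1) to 0.54 (without PBS 2) with a library left out. It was -0.40 without AKK 1 and -0.0154 without AKK 2. Ifitm3 ran from -0.037 (without AKK 1) to 1.02. With the replicate number as a block, 209 genes and 0 members were called and the median was -0.0072; deviations of same-numbered libraries correlated at -0.0021 across genes, so the numbers give no sign of pairing. Of 112 alternative values of the 8 members with printed statistics, 111 kept direction and side of the threshold, and their lowest adjusted p was 0.0633. The 8 values at a threshold of 0.1 repeat the main fit, so their direction could not change.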
